A study of Mus musculus with 7 samples.

Results

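The genes of the MYC network other than Mycl were taken as the 10 symbols Myc, Mycn, Max, Mga, Mnt, Mxi1, Mxd1, Mxd3, Mxd4 and Mlx, chosen by name and not by their values. All 10 were listed among the 56941 genes of each of the 4 deposited count matrices. The matrices came from single-nucleus RNA sequencing (snRNA-seq) of fresh-frozen endpoint lung tumors of male mice, a model of small cell lung cancer (SCLC), with 2 RP and 2 RPC animals, named RP1 and RP2 and RPC1 and RPC2. Where 4 values follow each other they stand in this order. RP mice carry floxed Rb1 and Trp53 (Rb1 fl/fl, Trp53 fl/fl). RPC mice carry the same alleles and lack Casp8, which the labels write as Casp8-/- although the methods of the study describe a conditional allele. Mice of both groups were 8 to 12 weeks old when an adenovirus carrying Cre under the CMV promoter was inhaled. This promoter is active in many cell types, so recombination was not limited to 1 lineage. The comparison of RPC with RP asks what goes with the loss of Casp8 in tumors that lack Rb1 and Trp53.

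MYC proteins bind DNA as pairs with MAX, at E-box sequences, and raise the output of genes of growth and metabolism. MNT, MGA and the MXD proteins, to which MXI1 belongs, also pair with MAX and act as repressors at such sites, and MLX is an alternative partner of several of these repressors and of the glucose-responsive Mondo proteins. In SCLC a tumor commonly overexpresses a single member of the MYC family, and MYCL is the family member best known from mouse tumors without Rb1 and Trp53. MAX and MGA are known as genes lost in a part of human SCLC.

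The promoters of Mycn and Mxd3 are shown because these genes differ in how they followed the cell cycle and in the cell cycle letters before their starts. Each run holds the 250 bases before the RefSeq start on the minus strand, written in the direction of the gene (GRCm38.p6). The Mycn run is chr12:12941837-12942086 and the Mxd3 run is chr13:55329732-55329981. Capitals mark matches on either strand to E2F letters (TTTCCCGC, TTTGGCGC, TTTCGCGC or TTTGCCGC) and to the cell cycle homology region (CHR, TTTGAA), a motif of genes that peak in mitosis.
Mycn: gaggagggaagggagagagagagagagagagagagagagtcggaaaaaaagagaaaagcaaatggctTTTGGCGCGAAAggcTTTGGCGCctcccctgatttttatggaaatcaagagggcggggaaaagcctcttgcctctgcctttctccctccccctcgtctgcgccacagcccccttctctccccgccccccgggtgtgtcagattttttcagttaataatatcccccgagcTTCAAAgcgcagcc
Mxd3: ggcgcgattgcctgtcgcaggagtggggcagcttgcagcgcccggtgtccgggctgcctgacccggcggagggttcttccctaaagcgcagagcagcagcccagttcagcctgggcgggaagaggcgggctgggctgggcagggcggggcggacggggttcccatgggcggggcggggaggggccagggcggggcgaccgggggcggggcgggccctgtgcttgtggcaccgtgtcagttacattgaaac
Mycn held 3 E2F matches, at 183, 179 and 168 bases before the start, of which the first 2 overlap, and a CHR match at 14 bases. The Mxd3 run held none of these letters. RefSeq promoters were given for 9 of the 10 genes, in 11 windows, and Myc was not among them. E2F letters were found in 1.87% of the 32536 promoters of all genes and, of the 11 windows, in that of Mycn alone. CHR letters were found in 15.8% of all promoters. The E-box CACGTG itself, found in 6.04% of all promoters, stood before Mnt (123 bases), Mxd4 (219 bases) and Mlx (40 bases). These matches describe letters only. Other forms of the motifs, and bases after the start, were not searched.

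The matrices held 32299909 to 72446861 transcripts per animal, more in both RPC animals than in both RP animals. The share of the ribosomal transcript Rn18s-rs5 was 10.002%, 8.51%, 3.13% and 5.38%. Of 38254 nuclei kept, 32198 were named tumor-like, between 7117 and 9166 per animal. This name went to clusters in which no marker list of another cell type scored above 0.5. The score was the median log2 ratio of the listed genes to all other nuclei. The neuroendocrine list did not enter the name, and its score ran from -0.24 to 0.34 over the tumor-like clusters. No barcode was shared between animals. Casp8 itself had 58.9 and 60.9 transcripts per 1000000 transcripts (CPM) in RP and 88.9 and 66.4 CPM in RPC tumor-like nuclei (log2 difference 0.37, SE 0.19, edgeR adjusted p 0.397). These counts cover the whole gene, whose deleted part the sources do not place, so they do not check the labels. The animal was the replicate (n = 2 per genotype).

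Myc and Mycn were nearly silent in tumor-like nuclei of every animal. Myc (ENSMUSG00000022346, GRCm39 chromosome 15, 61857227 to 61862223) had 18, 35, 31 and 58 transcripts, or 0.676, 1.28, 0.571 and 1.26 CPM after TMM scaling. Mycn (ENSMUSG00000037169, chromosome 12, 12986076 to 12992915) had 64, 35, 117 and 91 transcripts, or 2.40, 1.28, 2.16 and 1.97 CPM. In both genes the RP and RPC animals overlapped. The log2 difference of RPC from RP was -0.11 for Myc (SE 0.56, edgeR adjusted p 0.942) and 0.16 for Mycn (SE 0.42, edgeR adjusted p 0.871). No tumor-like nucleus held more than 3 transcripts of either gene.

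The low Mycl of RPC tumors did not go with a higher level of either relative that these data could show. Mycl (ENSMUSG00000028654, chromosome 4, 122889408 to 122896282) had 53.5, 71.8, 6.54 and 10.5 CPM, with both RPC animals far below both RP animals, a log2 difference of -2.88 (SE 0.31, edgeR adjusted p 0.265). DESeq2 gave Mycl an adjusted p of 6.53e-13, and an edgeR fit without the filter on low counts gave 0.0179. Myc and Mycn together had 2.82 ± 0.366 CPM in RP and 2.98 ± 0.353 CPM in RPC (SD, n = 2), a difference smaller than the spread between animals. The 3 genes together had 65.5 ± 12.6 CPM in RP and 11.5 ± 3.15 CPM in RPC (SD, n = 2), and the fall was that of Mycl. The 95% interval of the Mycn fold of RPC over RP ran from 0.536 to 2.34, and its upper end would put Mycn at 4.32 CPM in RPC. The same interval for Myc ran from 0.344 to 2.51, with an upper end at 2.45 CPM.

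**Figure D1:**
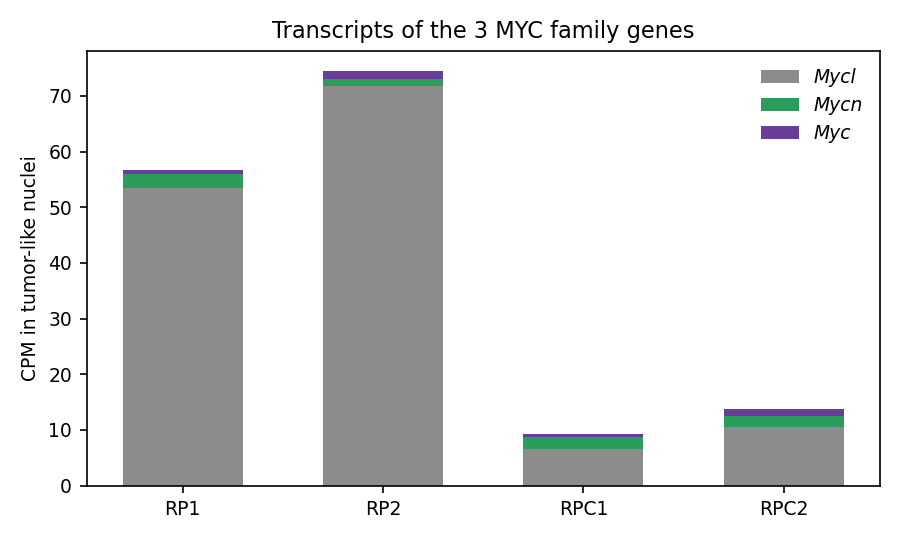
Level of Mycl, Mycn and Myc in tumor-like nuclei, in CPM after TMM scaling, stacked for each of the 4 animals. The stacks reach 56.6 and 74.4 CPM in RP1 and RP2 and 9.26 and 13.7 CPM in RPC1 and RPC2, and the Myc and Mycn parts stay at 2.56 to 3.23 CPM together in every animal.

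With Mycl low, the makeup of the family shifted while Myc and Mycn together differed by less than the spread between animals. Mycl made up 94.6% (95% exact binomial interval 93.3 to 95.7) of the family transcripts in RP1 and 96.6% (95.7 to 97.3) in RP2, against 70.6% (66.4 to 74.5) and 76.5% (73.0 to 79.7) in the RPC animals. These intervals cover counting error only. These shares count transcripts without regard to gene length. Per kilobase of exon, Mycl lay 24.4 and 61.5 times above Mycn in the RP animals but 3.32 and 5.84 times in the RPC animals.

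Nuclei with Mycl and nuclei without it were also compared within each animal, after thinning each tumor-like nucleus to 1000 transcripts. A Mycn transcript was seen in 1 of 253 nuclei with Mycl and 13 of 6062 without it in RP1. The counts were 1 of 412 and 9 of 6070 in RP2, 0 of 52 and 13 of 8971 in RPC1, and 0 of 84 and 13 of 8168 in RPC2. The zeros allow shares of up to 5.77% and 3.57%, so nuclei with both genes were too few to show either a link or its absence. Myc was seen in 0 nuclei with Mycl, which allows up to 1.19%, 0.728%, 5.77% and 3.57%, and in 4, 8, 4 and 11 nuclei without it. Myc was thus also too rare to show a link or its absence. Without thinning the Myc share was 0.752%, 0.763%, 0.904% and 1.81% with Mycl and 0.178%, 0.404%, 0.306% and 0.571% without it. There the nuclei with Mycl were deeper (median 4205.5 to 8477 against 2061.5 to 3289 transcripts). Over all thinned tumor-like nuclei the Mycn share was 0.222%, 0.154%, 0.144% and 0.158% (0.843%, 0.483%, 1.22% and 0.981% without thinning). In macrophage-like nuclei, where it should be lacking, it was 0 of 143, 275, 182 and 157, which allows up to 2.10%, 1.09%, 1.65% and 1.91% (median depth 3387 to 4968.5 transcripts, against 2509 to 3384 in tumor-like nuclei), so the low Mycn share of tumor-like nuclei could not be told from free RNA at this depth.

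None of the 10 genes passed the threshold between RPC and RP. By edgeR, 0 of 10 had an adjusted p under 0.05, as did 0 of all 20110 genes tested (0%), and DESeq2 called 0 of 10 of them beside 641 of 17453 genes (1.92% higher, 1.75% lower). At an unadjusted p under 0.05, 1 of 10 was lower (7.69% of all genes tested) and 0 of 10 were higher (7.36%). The RP and RPC animals stood apart without overlap in 4 genes that were lower in RPC (25.5% of all genes) and 1 that was higher (24.8%), so 5 of 10 did so where 50.3% of all genes did. The median log2 difference over the 10 genes was -0.09, and -0.01 over all genes tested. With 2 animals per genotype, an exact permutation test of a single value cannot go below p = 0.333.

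Mxi1 (ENSMUSG00000025025, chromosome 19, 53298852 to 53364241), which encodes a repressor partner of MAX, was the gene at an unadjusted p under 0.05. It had 129, 97.8, 39.8 and 75.2 CPM, so both RPC animals lay below both RP animals, and RPC1 lay lowest. The log2 difference was -0.98 (SE 0.34, edgeR p 0.0321, adjusted p 0.305), which is 0.507 times the RP level with a 95% interval of 0.280 to 0.919. Without RPC1 it was -0.59, and without RPC2 -1.49. Within each of the 7 sublibraries, which all hold nuclei of all 4 animals, the log2 ratio lay between -1.03 and -0.85. At 1000 transcripts per nucleus, 11.6%, 8.75%, 3.76% and 7.23% of tumor-like nuclei held an Mxi1 transcript (29.4%, 23.5%, 16.6% and 23.9% without thinning), and 8.39%, 10.9%, 5.49% and 17.2% of macrophage-like nuclei did.

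Of the other repressors, Mnt, Mxd3 and Mxd1 did not pass the threshold either. Mnt (ENSMUSG00000000282), a broadly expressed antagonist of MYC, had 26.9, 20.01, 17.8 and 16.1 CPM, with RP1 highest and no overlap of the genotypes. Its log2 difference was -0.46 (SE 0.22, edgeR adjusted p 0.383), and -0.23 without RP1. Mxd3 (ENSMUSG00000021485, chromosome 13, 55472981 to 55477908), the MXD gene known from proliferating cells, had 15.7, 11.6, 10.3 and 10.9 CPM. Its genotypes did not overlap but RP2 lay close to both RPC animals, and the log2 difference was -0.36 (SE 0.24, edgeR adjusted p 0.4997), or -0.13 without RP1. Mxd1 (ENSMUSG00000001156), known from differentiating cells, had 21.8, 26.0, 32.7 and 23.0 CPM, with overlap, and a log2 difference of 0.22 (SE 0.24, edgeR adjusted p 0.675).

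Mxd4 (ENSMUSG00000037235, chromosome 5, 34331227 to 34345240), an MXD gene of differentiating and resting cells, had 43.5 CPM in RP1 and 80.9, 77.6 and 91.0 CPM in RP2, RPC1 and RPC2. RP1 alone stood apart, and RP2 lay among the RPC animals. The log2 difference of 0.44 (SE 0.31, edgeR adjusted p 0.524) was 0.96 without RP2 and 0.06 without RP1. Mga (ENSMUSG00000033943, chromosome 2, 119727694 to 119800062), a scaffold of a Polycomb complex that binds with MAX, had 163, 182, 194 and 196 CPM and a log2 difference of 0.17 (SE 0.14, edgeR adjusted p 0.557). It was the gene with both RPC animals above both RP animals.

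The partners Max and Mlx did not pass the threshold. Max (ENSMUSG00000059436, chromosome 12, 76984043 to 77009009), the obligate partner of the MYC proteins, had 44.1, 44.1, 39.4 and 37.3 CPM, lower in both RPC animals, a log2 difference of -0.20 (SE 0.15, edgeR adjusted p 0.529) with a 95% interval of the fold from 0.671 to 1.13. Mlx (ENSMUSG00000017801), the second partner, had 7.06, 6.84, 5.77 and 7.51 CPM and a log2 difference of -0.07 (SE 0.27, edgeR adjusted p 0.922). Max was present in all 4 animals.

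**Figure D2:**
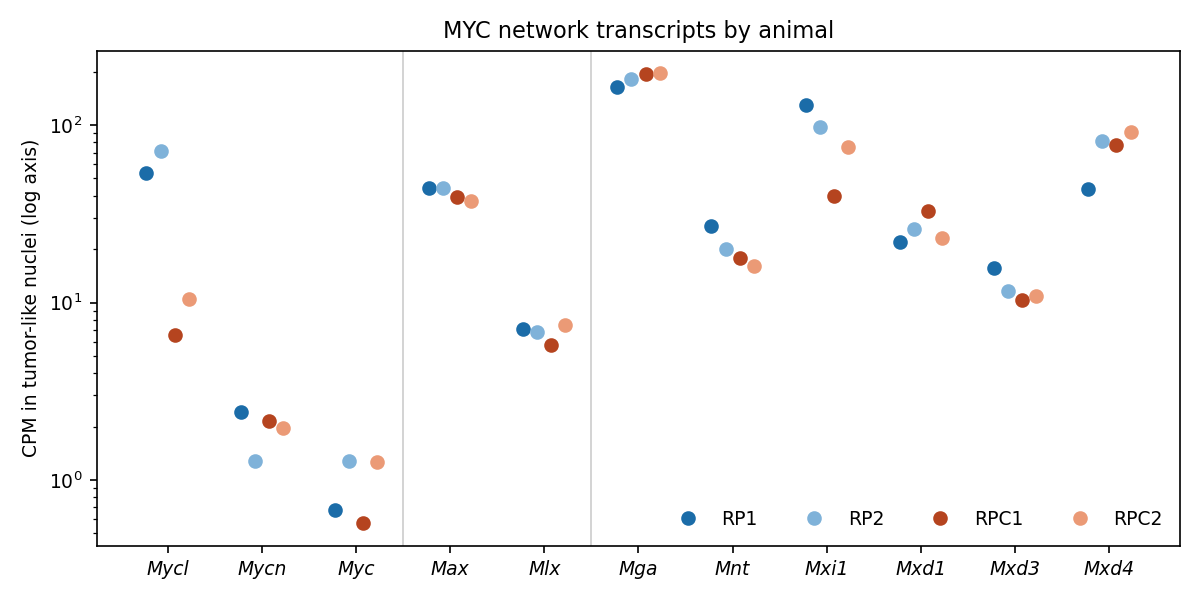
Level of each of the 10 genes and of Mycl in tumor-like nuclei, in CPM after TMM scaling on a log axis, with 1 point per animal (blue RP, red RPC). RP and RPC lie farthest apart for Mycl (53.5 and 71.8 against 6.54 and 10.5 CPM), then for Mxi1 (129 and 97.8 against 39.8 and 75.2 CPM), and Myc and Mycn have the fewest transcripts.

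The 10 genes were ordered by CPM per kilobase of gene span, averaged over the 4 animals, since nuclei hold unspliced RNA. Mxd4 was first with 5.23, and lay highest in 3 animals (3.10, 5.77, 5.54 and 6.49), while Mxd3 lay above it in RP1 (3.18). Mycl on the same scale had 7.79, 10.4, 0.951 and 1.53, above Mxd4 in both RP animals and below it in both RPC animals. Mga followed Mxd4 with 2.54, Mxd3 with 2.46, Max with 1.65, Mlx with 1.37, Mxi1 with 1.31, Mnt with 1.31 and Mxd1 with 1.17. The ranges over animals overlapped between Mxd4 and Mxd3, between Mga and Mxd3 and between each pair of neighbors from Max to Mxd1. Mycn with 0.285 and Myc with 0.189 overlapped each other and lay below all others in every animal. Per kilobase of exon Mga (11.97), Mxi1 (11.8) and Max (9.57) led instead, and Mycn (0.423) and Myc (0.346) were again last.

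Levels were next compared along the cell cycle, within the tumor-like nuclei of each animal. Tumor-like nuclei were thinned to 1000 transcripts and called mitotic with at least 3 transcripts of 30 mitotic genes, S-phase with at least 3 of 35 replication genes and under 3 mitotic transcripts, and other below both. None of the 10 genes is on these lists. Mitotic nuclei made up 46.7%, 39.4%, 46.7% and 57.0% of the nuclei so classed. The cut is a point on a range, since between 1304 and 2352 nuclei per animal held 2 or 3 mitotic transcripts. It was also passed by 39.8% of endothelial-like and 37.1% of macrophage-like nuclei, against 48.0% of tumor-like ones. With nuclei limited to 2 times the median depth of their animal these shares were 28.0%, 24.1% and 43.0%.

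Mitotic nuclei differed from other nuclei of the same animal in 5 of the 9 genes tested (edgeR, paired by animal, adjusted p under 0.05), 1 higher and 4 lower, where 42.4% of all 15322 genes passed (19.7% higher, 22.7% lower). A share of 5 in 9 is thus near that of all genes. Myc had too few transcripts to be tested, and was lower in mitotic nuclei of all 4 animals (0.596 to 1.20 CPM in mitotic and 0.637 to 1.88 CPM in other nuclei).

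Mxd3 had the largest difference of the 9 genes and rose in every animal. It had 4.76, 2.77, 1.75 and 3.44 CPM in other nuclei and 23.0, 19.5, 14.2 and 13.6 CPM in mitotic nuclei, with no overlap. The log2 difference was 2.4996 (SE 0.16, edgeR adjusted p 7.00e-10), a 5.66-fold rise, and 2.83 and 1.96 with cuts of 2 and 5 transcripts. In S-phase nuclei Mxd3 had 5.87, 6.28, 5.39 and 5.92 CPM, a rise of 0.98 on the log2 scale (SE 0.21, edgeR adjusted p 0.00157). Mxd3 shares 1526 bases on the opposite strand with Prelid1, and the sources used here do not state whether counting used strand. Prelid1 had a mitotic log2 difference of -0.12 (SE 0.13, edgeR adjusted p 0.457).

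The other repressors did not share this rise. Mxd4 fell by 0.55 on the log2 scale (SE 0.06, edgeR adjusted p 7.87e-07), from 49.7, 100.2, 104.6 and 137 CPM in other nuclei to 42.3, 69.6, 69.8 and 81.6 CPM in mitotic ones, lower in 4 of 4 animals. Mxi1 fell by 0.31 (SE 0.05, edgeR adjusted p 2.49e-05), from 151, 112, 47.2 and 90.5 CPM to 124, 90.4, 36.7 and 73.0 CPM, again in 4 of 4 animals. Mxd3 and Mxd4, members of 1 protein family, thus moved in opposite directions along the cycle in every animal. In S-phase nuclei Mxd4 fell by 0.39 (SE 0.06, edgeR adjusted p 0.000168) and Mxi1 by 0.23 (SE 0.05, edgeR adjusted p 0.00176).

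Max and Mga moved little. Max fell by 0.24 in mitotic nuclei (SE 0.06, edgeR adjusted p 0.00214) and by 0.22 in S-phase nuclei (SE 0.06, edgeR adjusted p 0.0118), in 4 of 4 animals each. Mga fell by 0.12 (SE 0.04, edgeR adjusted p 0.0193) in mitotic nuclei, a call that was lost without RP2, without RPC1, without the filter on low counts, with a cut of 5 and without the deepest nuclei. Mnt, Mxd1 and Mlx had mitotic log2 differences between -0.08 and -0.01. Mlx shares 1340 bases on the opposite strand with Psmc3ip, a recombination gene whose mitotic log2 difference was 0.91 (SE 0.12, edgeR adjusted p 8.75e-06). In S phase 4 of 9 genes were called, Mxd3 higher and Mxd4, Mxi1 and Max lower, where 31.6% of all genes were (15.3% higher, 16.3% lower).

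Mycn, whose promoter run carries the E2F and CHR letters, did not pass the threshold. It had 2.07, 0.728, 2.37 and 1.31 CPM in other nuclei and 2.49, 1.49, 2.09 and 2.21 CPM in mitotic ones, higher in 3 of 4 animals. The log2 difference was 0.33 (SE 0.24, edgeR adjusted p 0.295), on 5 to 19 transcripts per animal in other nuclei. Mxd3, whose run held none of the letters searched, was the gene that rose. Any part of these letters in the levels was not tested. Mycl rose by 0.44 over the 4 animals (SE 0.09, edgeR adjusted p 0.000979) in mitotic nuclei, from 35.0, 59.6, 6.36 and 9.34 CPM to 61.4, 78.1, 6.47 and 10.6 CPM. Both RP animals rose by a larger factor than both RPC animals, in which the rise was small. The log2 difference between genotypes in this rise was -0.46 (SE 0.19, edgeR p 0.0272, adjusted p 0.507). With a cut of 5 transcripts the rise over the 4 animals was 0.16 and did not pass.

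**Figure D3:**
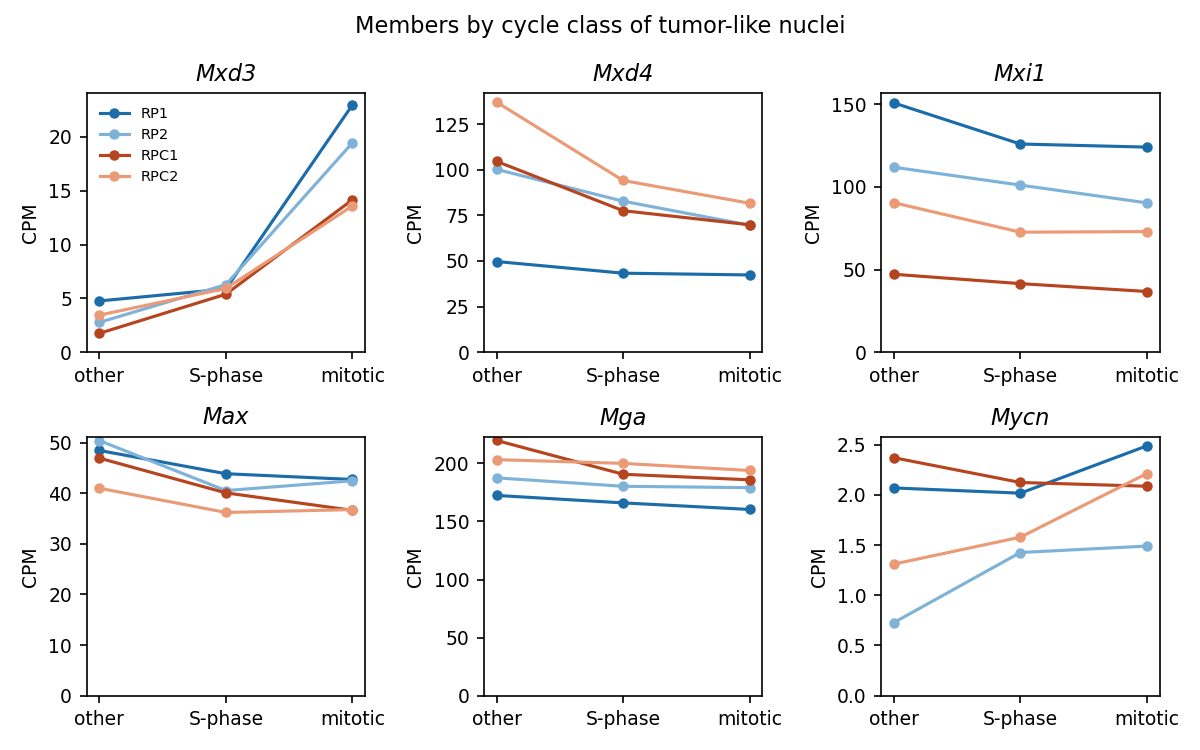
Level of Mxd3, Mxd4, Mxi1, Max, Mga and Mycn in other, S-phase and mitotic tumor-like nuclei, in CPM after TMM scaling, with 1 line per animal. Mxd3 climbs in all 4 animals, from 1.75 to 4.76 CPM up to 13.6 to 23.0 CPM, and Mxd4 and Mxi1 are lower in mitotic than in other nuclei of all 4.

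The mitotic effect did not differ between RPC and RP in any of the 9 genes by edgeR (0 of 9 at an adjusted p under 0.05, where 14 of 15322 genes or 0.0914% passed, 0.0131% higher and 0.0783% lower). Of the 9, Mxd4 was the gene with an unadjusted p under 0.05, with a log2 difference between genotypes of -0.26 (SE 0.10, edgeR p 0.0235, adjusted p 0.498), and DESeq2 called 0 of 7 tested. Mitotic nuclei were deeper than other nuclei of the same animal (median 2959.5 to 4206.5 against 2090 to 2744 transcripts). Their 14 neuroendocrine markers were lower (7154, 6332, 9129 and 9945 CPM against 8446, 7568, 10189 and 12753 CPM). The part of depth and of these markers in the results was not tested.

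The levels in tumor clusters are given as a description, without a test. Tumor-like nuclei fell into 17 groups of a cluster and an animal with at least 100 nuclei. In the 4 groups with under 20% mitotic nuclei Mxd3 had 2.82 to 4.95 CPM (without TMM scaling), and in the 7 groups with over 70% it had 11.8 to 34.7 CPM. The highest value, in cluster C5 of RP1, rested on 21 transcripts. Mxd4 was highest in cluster C1 of RPC2 (158 CPM) with 27.9% mitotic nuclei, and ran from 37.8 to 51.3 CPM in all 5 groups of RP1. No cluster of any animal had Mycn above 3.59 CPM or Myc above 5.89 CPM, and these highest values rested on 2 transcripts each. Mycl ran from 19.6 to 66.9 CPM in the groups of RP1 and from 33.4 to 86.0 CPM in those of RP2, against 5.51 to 7.18 CPM and 3.59 to 11.97 CPM in the RPC animals. In the group with the lowest Mycl, cluster C1 of RPC2, each of the 3 family genes had 2 transcripts in 270 nuclei.

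**Figure D4:**
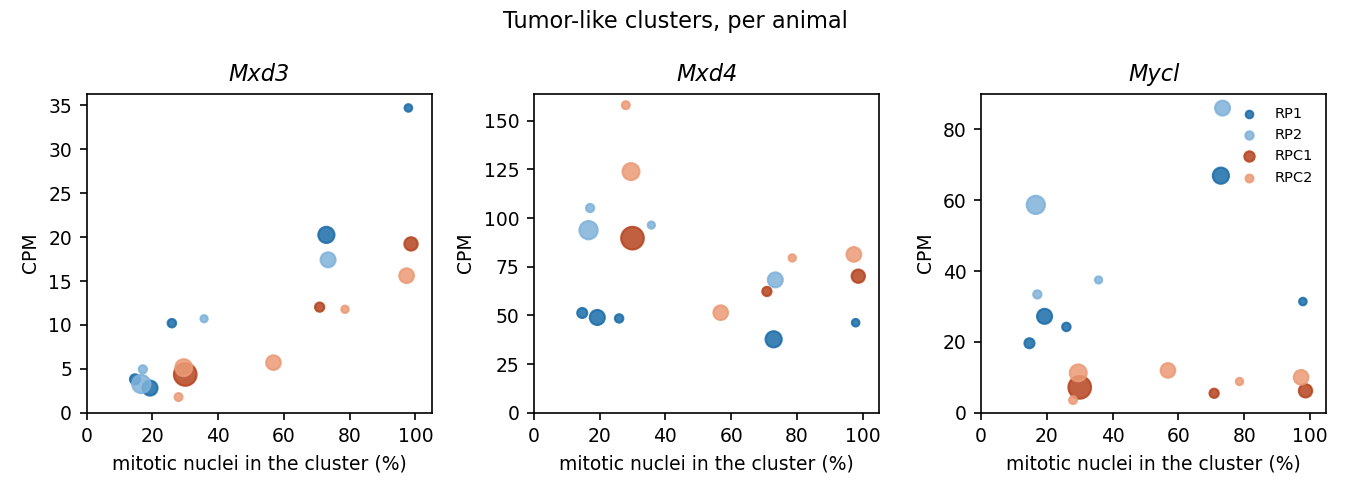
Level of Mxd3, Mxd4 and Mycl, in CPM without TMM scaling, against the percentage of mitotic nuclei in the 17 groups of a cluster and an animal. Point size follows the number of nuclei; the 7 groups above 70% mitotic nuclei have 11.8 to 34.7 CPM of Mxd3, above all other groups, and Mycl is higher in every RP group than in every RPC group.

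The other classes of nuclei carried much tumor RNA. The 14 neuroendocrine markers reached 73.9% of their pooled tumor-like level in endothelial-like nuclei, 70.4% in smooth muscle- or pericyte-like, 58.9% in macrophage- or monocyte-like, 73.1% in B cell-like and 81.5% in club-like nuclei. Mycl followed the animal in the same way (42.3, 67.2, 1.30 and 9.70 CPM in endothelial-like nuclei). So did Mxi1, with 93.1, 92.9, 41.8 and 76.0 CPM in endothelial-like nuclei, but not in macrophage-like nuclei, with 119, 107, 83.9 and 124 CPM. Nuclei up to 2 times the median depth of their animal, a limit chosen after seeing the data, carried less: 35.4%, 23.5%, 24.8%, 48.4% and 28.0% in the same order of classes. The class levels below pool the animals and come without a test, and their Poisson intervals cover counting error only.

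Myc was higher in some classes of nuclei than in tumor-like nuclei and not in others. It had 0.924 CPM in tumor-like nuclei (95% interval 0.779 to 1.09, 142 transcripts), 3.95 CPM in endothelial-like (2.10 to 6.75, 13 transcripts), 3.25 CPM in smooth muscle- or pericyte-like (1.73 to 5.56, 13 transcripts) and 2.82 CPM in macrophage- or monocyte-like nuclei (1.64 to 4.51, 17 transcripts). Club-like nuclei, with the most Myc transcripts outside the tumor-like ones, overlapped them with 1.25 CPM (0.798 to 1.85, 24 transcripts). In the shallower nuclei Myc had 0.865 CPM in tumor-like (0.652 to 1.13), 11.3 CPM in endothelial-like (4.88 to 22.3, 8 transcripts), 7.80 CPM in smooth muscle- or pericyte-like (2.53 to 18.2, 5 transcripts), 4.67 CPM in macrophage- or monocyte-like (1.71 to 10.2, 6 transcripts) and 11.8 CPM in B cell-like nuclei (3.82 to 27.5, 5 transcripts). The intervals of the 4 latter classes lie above that of the tumor-like nuclei, on few transcripts. Over all nuclei, the Myc level of macrophage- or monocyte-like nuclei lay above the tumor-like level in every animal. It was 2.92, 3.26, 1.67 and 3.67 CPM, on 3, 6, 3 and 5 transcripts, against 0.654, 1.27, 0.589 and 1.27 CPM in tumor-like nuclei. Intervals per animal were not computed. The other classes did not follow in every animal. Endothelial-like nuclei held 0 Myc transcripts in RPC1 and B cell-like 0 in RP2. Smooth muscle- or pericyte-like nuclei of RPC2 had 0.702 CPM. In 4 further classes limiting depth did not raise Myc: club-like nuclei had 1.20 CPM (0.146 to 4.35), unnamed nuclei went from 3.32 to 3.22 CPM, and alveolar type 1-like and T or NK-like nuclei went from 2 transcripts each to 0. Alveolar type 2-like nuclei held 0 Myc transcripts, with an interval of 0 to 3.99 CPM over all nuclei.

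In the shallower nuclei Mycn had 2.03 CPM in tumor-like nuclei (95% interval 1.69 to 2.41, 129 transcripts). Every other named class held at most 2 transcripts, out of far smaller totals, so these counts do not show a lower level. Alveolar type 1-like nuclei had 4.54 CPM (0.550 to 16.4, 2 transcripts), B cell-like 2.36 (0.0596 to 13.1) and macrophage- or monocyte-like 0.778 (0.0197 to 4.34). Club-like nuclei held 0 Mycn transcripts, with an interval of 0 to 2.22 CPM that overlaps the tumor-like one. Max was present everywhere, with 40.8 CPM in tumor-like nuclei (39.2 to 42.4), 65.4 in macrophage- or monocyte-like (52.1 to 80.9), 66.9 in club-like (55.0 to 80.5) and 55.2 in endothelial-like nuclei (39.2 to 75.4). Over all nuclei the Max levels of these classes were 40.6, 53.2, 46.5 and 49.5 CPM. Their Mycn levels over all nuclei were 2.00 (1.78 to 2.24), 1.66 (0.795 to 3.05), 1.14 (0.716 to 1.73) and 2.73 CPM (1.25 to 5.19).

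Of the repressors, Mxd4 and Mxi1 are given for both sets of nuclei, since limiting depth moved some levels by over 1.5 times. Mxd4 in tumor-like nuclei had 76.7 CPM in all and 73.6 in the shallower nuclei (95% interval 71.5 to 75.7). In club-like nuclei Mxd4 had 105.1 CPM in all and 163 in the shallower ones (144 to 183), and in endothelial-like nuclei 116 and 158 (130.4 to 190.6), above the tumor-like level in both sets. Mxi1 in tumor-like nuclei had 76.5 CPM in all and 75.6 in the shallower nuclei (73.4 to 77.7). In macrophage- or monocyte-like nuclei Mxi1 had 106 CPM in all and 139 in the shallower ones (119 to 160). In club-like nuclei, of which RPC1 gave 743 of 1196, the pooled Mxi1 level was 83.7 CPM in all and 154 in the shallower ones (135 to 174). By animal over all nuclei it was 122, 107, 75.7 and 91.6 CPM in club-like nuclei. The tumor-like levels were 125, 96.8, 41.0 and 75.9 CPM, so club-like nuclei lay higher in every animal but RP1.

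With animals pooled, Mxd3 was lower in macrophage- or monocyte-like than in tumor-like nuclei in both sets. By animal over all nuclei, this held in RP1, RP2 and RPC1 but not in RPC2 (11.01 against 10.98 CPM). Endothelial-like and B cell-like nuclei lay above the tumor-like level over all nuclei and below it in the shallower ones, but their intervals overlapped it in both sets. Over all nuclei Mxd3 had 11.7 CPM in tumor-like (11.2 to 12.3), 13.96 in endothelial-like (10.2 to 18.6), 13.4 in B cell-like (8.27 to 20.4) and 8.29 in macrophage- or monocyte-like nuclei (6.15 to 10.9). In the shallower nuclei Mxd3 had 10.95 CPM in tumor-like (95% interval 10.2 to 11.8) and 3.89 in macrophage- or monocyte-like nuclei (1.26 to 9.08, 5 transcripts). Endothelial-like nuclei had 5.66 CPM (1.54 to 14.5, 4 transcripts) and B cell-like 4.71 (0.571 to 17.0, 2 transcripts). The intervals of club-like (3.31 to 11.9) and smooth muscle- or pericyte-like nuclei (0.378 to 11.3) also overlapped that of the tumor-like ones. Mnt had 18.8, 18.4, 20.2 and 17.5 CPM in the shallower tumor-like, endothelial-like, macrophage- or monocyte-like and club-like nuclei, with overlapping intervals. Mga had 188, 173, 150.2 and 208 CPM in the same classes. The 1976 unnamed nuclei were shallow, with medians of 885, 1172 and 1103 transcripts in their clusters. They had 5.16 CPM of Mycn (2.82 to 8.66, 14 transcripts), above the interval of tumor-like nuclei. Their Mycl, at 145, 209.9, 13.9 and 41.7 CPM, also lay above the tumor-like level of each animal. The part of their low depth in these levels was not tested.

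**Figure D5:**
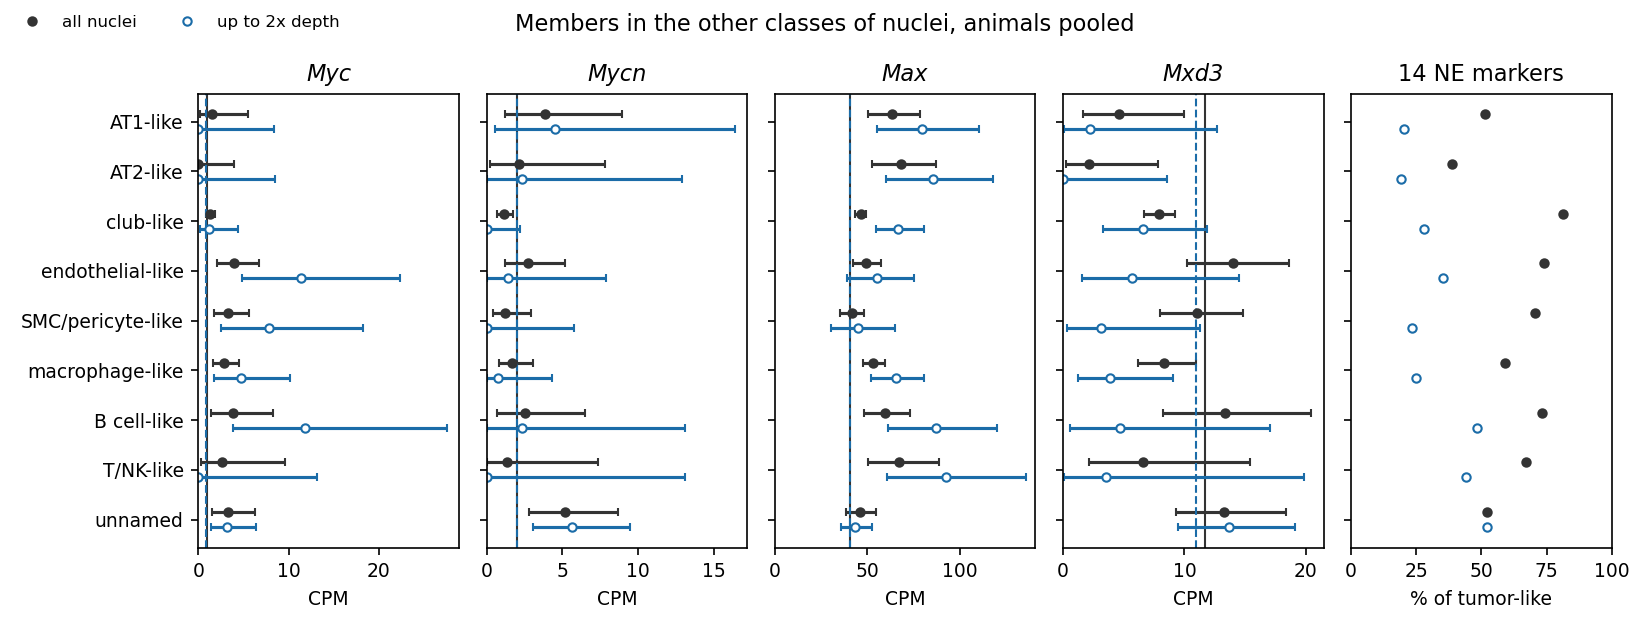
Pooled CPM of Myc, Mycn, Max and Mxd3 per class of nuclei with 95% Poisson intervals, for all nuclei (filled) and for nuclei up to 2 times the median depth of their animal (open), and the level of the 14 neuroendocrine (NE) markers as a percentage of that in tumor-like nuclei. Vertical lines mark the tumor-like level. Limiting depth lowers the NE markers of the named classes and moves Myc up to 11.3 CPM in endothelial-like nuclei, against 0.865 CPM in tumor-like ones.

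MYC loci can be amplified together with their neighbors in SCLC, so the genes around Myc and Mycn were read as well. Of 31 genes annotated within 1 Mb of the Myc start, 4 were tested, all noncoding and all lower in RPC, with 0 called. Pvt1, a noncoding gene next to Myc, had 24.3, 63.7, 39.3 and 38.1 CPM, highest in RP2 with the RPC animals between those of RP. Of 55 genes around Mycn 6 were tested, 4 higher and 2 lower, with 0 called. Ddx1, which is often amplified together with MYCN, had 62.8, 76.3, 96.0 and 82.5 CPM (log2 difference 0.36, SE 0.17, edgeR adjusted p 0.382). Copy number itself was not measured.

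The genes that work with the network were taken from lists. Of all 20110 genes tested, 10236 were lower in RPC and 9874 higher. Of 11 coactivators, 10 were lower in RPC and 0 were called by edgeR, 1 by DESeq2 (1.75% of all genes lower). The lowest was Kat2a, a histone acetyltransferase, with 16.1, 16.9, 7.18 and 8.16 CPM (log2 difference -1.10, SE 0.21, edgeR adjusted p 0.265). Of 7 corepressors 5 were lower (Hdac1 had 127, 139, 70.3 and 90.4 CPM) and of 8 genes of the MGA Polycomb complex 7 were, with 0 called. Of 10 genes of MYC protein turnover 7 were higher, such as Fbxw7, the subunit that marks MYC for degradation, with 138, 163, 203 and 218 CPM, again with 0 called. Mlxipl, a Mondo protein gene, had 83.6, 55.8, 49.8 and 40.0 CPM (log2 difference -0.63, SE 0.25, edgeR adjusted p 0.330).

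Of 30 growth genes known as MYC targets, 28 were lower in RPC and 2 higher, where 10236 of all 20110 genes were lower, with a median log2 difference of -0.37 against -0.01 over all genes, 0 called by edgeR and 3, all lower, by DESeq2 (1.75% of all genes). In 21 both RPC animals lay below both RP animals, where 25.5% of all genes did. Shmt2, a mitochondrial enzyme of serine metabolism, had 19.4, 16.6, 3.96 and 6.93 CPM (log2 difference -1.73, SE 0.34, edgeR adjusted p 0.265). Gene span moved with this result. Among well expressed genes, those under 10 kb had a median log2 difference of -0.13 (1091 genes) and those of 100 kb and over 0.08 (1973 genes). The 12 growth genes under 10 kb were all lower (median -0.61), as were 16 of the 18 longer ones (median -0.27). The Rn18s-rs5 share also differed between genotypes. The part of gene span and of this share in the counts of the growth genes and of the partner lists was not tested.

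The genes whose levels were most like those of Myc and Mycn were named from 39 sums of nuclei of a class or tumor cluster in an animal, over 12552 genes. For Myc they included Dis3 (Pearson correlation 0.615) and Dnajb11 (0.610), and for Mycn Asb1 (0.686), Rnf7 (0.652) and Cox7a2l (0.623). The sums share animals, depth and tumor RNA and hold few Myc or Mycn transcripts, so these values are a description.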

How the data were processed

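The authors deposited 1 table of transcript counts per animal, made with the Parse Biosciences pipeline from Evercode single-nucleus libraries aligned to the mouse genome (GRCm39), with unique molecular identifiers collapsed. Each of the 7 libraries pools nuclei of all 4 animals, so the animal was the replicate. Of 12 columns in the tables of nuclei, 8 were not used. Nuclei with at least 300 counts, at most 10% mitochondrial counts and at most 12000 genes were kept. No doublet caller was run here, and nuclei above 4 times the median depth were left out as an alternative. Nuclei were clustered (2000 variable genes, 20 principal components, 20 neighbors, Leiden resolution 0.4) and named from 13 marker lists. Tumor-like was the name left where no list of another cell type scored above 0.5. These names are reconstructions, since no deposited annotation of nuclei was used here.

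For each animal the counts over its tumor-like nuclei were added up and tested with edgeR 4.0.16 (quasi-likelihood test, TMM, filterByExpr, Benjamini-Hochberg adjustment over all genes), with animal as a term between cycle classes. Standard errors come from the log2 difference and the F statistic. CPM of classes and clusters is not TMM-scaled. DESeq2 1.42.0, other scaling and filters, left-out animals and other cuts were alternatives. The edgeR fits were tried on simulated counts. Their spread between animals was set below that of the RPC and RP comparison (biological coefficient of variation 0.285). The trial thus does not show what that comparison can detect. The depth per animal is 32299909 to 72446861 transcripts, and binomial (exact) and Poisson intervals cover counting error only. All 10 genes are reported. From partner and target lists at most 2 genes per direction with the smallest p were eligible to be named, together with tested genes within 1 Mb of Myc and Mycn and the genes most correlated with them. Kat2a, Hdac1, Fbxw7, Mlxipl and Shmt2 were taken from those eligible after their values were seen. The genes and lists were chosen with earlier results of these data known. Promoter sequences are RefSeq (GRCm38.p6), and gene coordinates are GRCm39. Python 3.11.15 and R 4.3.3 were used.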

Additional observations from a re-analysis of the deposited data

How the results depend on the processing

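No alternative called any of the 10 genes between RPC and RP. The count over all genes moved from 0 to 641 with DESeq2 and 19 without the filter on low counts, and ran from 0 to 7 with an animal left out (7 without RPC2). Mitotic calls among the 10 genes numbered 4 or 5 and S-phase calls 3 or 4. Mxd3, Mxd4, Mxi1 and Max stayed called in mitotic nuclei under every alternative, and Mxd3 and Mxd4 in S-phase nuclei. Max lost its S-phase call without the filter and without RP2, and Mxi1 lost it with a cut of 5, where Mga gained one. For the genotype difference of the mitotic effect, the count over all genes was 14, against 218 without the filter, 24 without nuclei above 4 times the median depth, and 0 to 76 with an animal left out (76 without RPC2, 69 without RPC1, 20 without RP2 and 0 without RP1). The cause of these moves was not tested.

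Signs turned for small differences that passed no threshold in any of these settings. Between RPC and RP, Myc was 0.060 and Mlx 0.053 within sublibraries, and Mlx 0.0031 without the filter. In mitotic nuclei, without the filter, Mnt was 0.026 and Mxd1 0.011, where the median of all genes moved from -0.02 to 0.13. Mnt was 0.010 and Mlx 0.066 with a cut of 5, and Mxd1 0.043 with a cut of 2 and 0.049 without the deepest nuclei. In S-phase nuclei with a cut of 5, Mycn was -0.071, Mnt 0.030 and Mlx 0.075. For the genotype difference without the filter, Max was 0.027, Mxi1 0.029 and Mxd3 0.0081.

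With an animal left out, the RPC and RP differences ran from -0.75 to 0.43 for Myc, -0.22 to 0.69 for Mycn, -0.050 to 0.47 for Mxd1 and -0.25 to 0.12 for Mlx. Without a turn of sign they ran from -0.66 to -0.23 for Mnt and -0.56 to -0.13 for Mxd3. Mitotic differences ran from -0.072 to 0.048 for Mnt, -0.071 to 0.010 for Mxd1 and -0.16 to 0.079 for Mlx, and the S-phase difference from -0.057 to 0.024 for Mnt. The genotype differences of the mitotic effect ran from -0.82 to 0.18 for Mycn, -0.14 to 0.054 for Max, -0.16 to 0.0087 for Mga, -0.57 to 0.47 for Mxd3 and -0.55 to 0.072 for Mlx.

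RP1 and RPC1 share only a number, and their deviations correlated at -0.041. With the replicate block edgeR called 0 genes, and Mxi1 had a log2 difference of -1.04 (adjusted p 0.383) and Mycl of -2.90. Low counts limit Myc and Mycn, and 2 animals per genotype limit every comparison of RPC with RP.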
